A study of Mus musculus with 10 samples.

Results

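The genes described here encode cargo of the secretory granule: the precursors of 8 non-opioid neuropeptides (Nts, Cartpt, Cck, Vip, Tac2, Crh, Adcyap1 and Trh) and 2 granins (Scg2 and Chgb). They were chosen by symbol, as a family, and all 10 were found among the 32531 gene symbols counted in each library. The libraries came from the whole striatum of adult Drd2-TRAP mice of line CP101, in which the dopamine D2 receptor gene's regulatory sequence drives ribosomal protein L10a fused to EGFP, so that ribosomes of D2 receptor cells can be captured with antibodies to EGFP. All mice carried this transgene, and all had worked for intravenous infusions in short access sessions, of saline in one arm and of cocaine in the other. Ribosome-bound RNA was immunopurified (IP) in 3 saline libraries (numbers 1, 2 and 4) and 5 cocaine libraries (numbers 1 to 5). Total striatal RNA was sequenced from 1 saline input library, and the RNA left after capture from 1 cocaine unbound library. The labels give neither the age in weeks nor the number of animals behind a library, so the p-values reflect the spread among these libraries alone, which may be technical.

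A neuropeptide is made as a longer precursor that is sorted into dense-core granules and cut at pairs of basic residues by the prohormone convertases. Carboxypeptidase E then trims the fragments, and an amidating enzyme completes many of them. Granins are acidic proteins that help such granules form and are themselves cut into peptides, so their transcripts are widespread in neurons, whereas each precursor belongs to certain neuron types. In the striatum, medium spiny neurons of the indirect pathway carry the D2 receptor, and other neurons, cortical inputs and glia surround them.

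IP libraries held 22975667 to 31631137 reads counted to genes, the input 18408782 and the unbound library 20882691. Levels are given as CPM, the reads of a gene in 1000000 gene reads of its library. A floor of 3 reads equals 0.0948 to 0.131 CPM in the IP libraries, 0.163 CPM in the input and 0.144 CPM in the unbound library. The labelled cell type was checked with markers: of 8 markers of the indirect pathway, 7 exceeded the input by 2-fold or more in all saline IP libraries, and all 8 of the direct pathway were below it by as much. Drd2 stood at 1585 to 2565 CPM in the IP libraries and at 402 CPM in the input. Of 5 cholinergic interneuron markers compared, 0 were above and 0 below the input by 2-fold in all saline IP libraries. Over all genes 1.56% and 13.8% were. The part of those interneurons in the IP RNA was not tested. Markers of hypothalamic neurons, a source of several of these peptides next to the striatum, were scarce: apart from Pomc and Agrp none exceeded 0.217 CPM in any library, Oxt had 0 reads in all 10, and the 8 markers summed to at most 2.61 CPM.

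The 10 genes fell into 5 that were well above the floor in every library (Chgb, Scg2, Nts, Cck and Cartpt) and 5 that were near it in the IP libraries (Tac2, Trh, Crh, Adcyap1 and Vip). Genes are compared with each other per kilobase of merged exons in GENCODE. On that scale Chgb led the saline IP libraries at 81.0 ± 14.3 CPM per kb (SD, n = 3), followed by Scg2 at 28.8 ± 4.30, Nts at 11.1 ± 4.89, Cck at 4.80 ± 0.391 and Cartpt at 1.13 ± 0.246 (all SD, n = 3). The ranges of neighbouring genes in this order did not overlap: the lowest Nts library had 8.02 CPM per kb and the highest Cck library 5.25. Tac2, Trh, Crh, Adcyap1 and Vip had means of 0.189, 0.0906, 0.0824, 0.0157 and 0.00358 CPM per kb, where neighbours overlapped. The cocaine IP libraries gave the same order for the first 5 genes, with Chgb at 95.4 ± 28.4 and Cartpt at 2.51 ± 1.11 CPM per kb (SD, n = 5). In the input Scg2 came first with 94.2 CPM per kb, ahead of Chgb with 74.3, Cck with 27.3 and Nts with 7.97. No gene model of GENCODE overlaps any of the 10, so reads of an overlapping or antisense gene are not at issue for them.

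**Figure D1:**
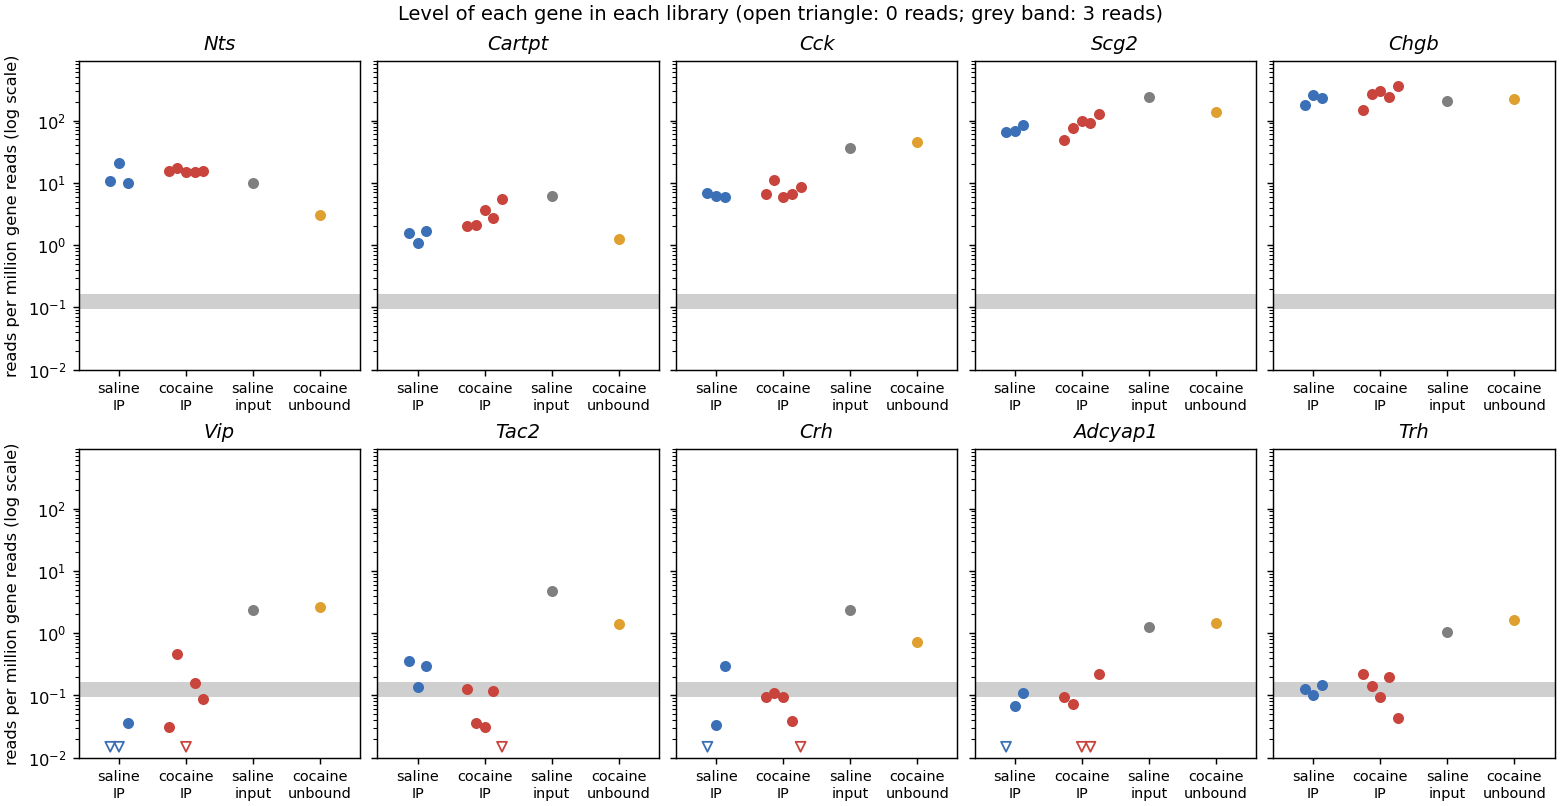
CPM (vertical axis, log scale) of the 10 genes, with 1 point for each library and the 4 sample groups side by side. The grey band marks 3 reads and open triangles mark libraries with 0 reads: Nts, Cartpt, Cck, Scg2 and Chgb lie above the band in all 10 libraries, while Vip, Tac2, Crh, Adcyap1 and Trh reach or cross it in the IP libraries.

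Nts encodes the precursor of neurotensin and neuromedin N (chromosome 10, 102481756 to 102490486). It had 10.7, 20.9 and 10.01 CPM in saline IP 1, 2 and 4, and 9.94 CPM in the input. One saline library, number 2, stood well above the others, and the remaining libraries lay next to the input. In cocaine IP 1 to 5 it had 15.6, 17.5, 14.7, 14.7 and 15.5 CPM, and 3.02 CPM in the unbound library. All 5 cocaine IP libraries were thus far above the unbound RNA, and they spread far less than the saline libraries, at a coefficient of variation of 7.30% against 43.9%. Saline IP 2 was also the saline library with the least glial RNA: 8 astrocyte markers summed to 53.6 CPM in it and to 207 and 158 CPM in saline IP 1 and 4, against 2266 CPM in the input. The part of this in the Nts values was not tested.

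IP was set against the reference library of the same treatment as a log2 ratio of scaled CPM plus 1. For a gene to count as higher or lower, all IP libraries had to pass 2-fold in the same direction. For Nts the ratio was 2.20 ± 0.11 (SD, n = 5) against cocaine unbound RNA, 4.58-fold, with 2.12 in the library closest to no change. Nts was the 1 gene of the 6 compared that was counted as higher there, where 3.59% of 13303 genes were. Against saline input the ratio was 0.58 ± 0.56 (SD, n = 3), with single libraries at 0.28, 1.23 and 0.24. None of the 8 genes compared there was counted as higher, where 1.56% of 13386 genes were. Those reference libraries differ in treatment and in fraction and have no replicate, so these sources of their difference for Nts (9.94 against 3.02 CPM) cannot be told apart.

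Cck, the cholecystokinin precursor gene (chromosome 9, 121489824 to 121495694), was lower in IP than in both references. It had 6.85, 6.03 and 5.92 CPM in saline IP 1, 2 and 4 and 35.7 CPM in the input. In cocaine IP 1 to 5 it had 6.49, 11.2, 6.01, 6.72 and 8.44 CPM, against 44.8 CPM in the unbound library. Every IP library was therefore below its reference, and cocaine IP 2 was the highest of the 8. The log2 ratio was -2.12 ± 0.07 (SD, n = 3) for the input. For the unbound library it was -2.23 ± 0.34 (SD, n = 5). In bulk RNA, fewer cells of a type and less RNA per cell cannot be told apart.

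Vip, the precursor gene of vasoactive intestinal peptide, a peptide of cortical interneurons (chromosome 10, 5639218 to 5647617), had 0, 0 and 1 read in saline IP 1, 2 and 4 and 43 reads in the input. Cocaine IP 1 to 5 had 1, 13, 0, 4 and 2 reads and the unbound library 54. Apart from cocaine IP 2 and 4, each IP library was at or under the floor. Summed over the 3 saline libraries, the input level was 206 times the IP level, with an exact 95% interval of 35.0 to 8304 from the single IP read. Summed over the 5 cocaine libraries, the unbound level was 18.1 times the IP level (10.6 to 31.9), and 41.3 times (18.7 to 108) without cocaine IP 2, which held 13 of the 20 reads. Without saline IP 1 or saline IP 2 the first of these folds was 133 or 137, and without saline IP 4 no IP read was left. These intervals cover counting error only.

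The library with the most Vip and Cck, cocaine IP 2, was also the one with the most RNA of pallial glutamatergic neurons. The summed level of the 7 markers of those neurons was 25.1 CPM in it, 2.47 to 21.0 CPM in the other cocaine IP libraries, 3.44 to 16.7 CPM in the saline IP libraries, and 165 and 221 CPM in the input and unbound libraries. None of the 7 was at 0 in all IP libraries. Markers of GABA interneurons, a striatal source of several of these peptides, summed to 9.47 to 24.7 CPM over the IP libraries. That sum went the other way in cocaine IP 2, where it was the lowest of the cocaine IP libraries (10.9 CPM, in a range of 10.9 to 24.7). The input and unbound libraries had 312 and 272 CPM. The part of either marker list in the Cck and Vip values was not tested.

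Tac2, the neurokinin B precursor gene (chromosome 10, 127724478 to 127731768), had 11, 4 and 8 reads in saline IP 1, 2 and 4 against 86 in the input. It had 4, 1, 1, 3 and 0 reads in cocaine IP 1 to 5 against 29 in the unbound library. Saline IP libraries lay just above the floor and 4 of the 5 cocaine IP libraries at or under it. The input level was 17.9 times the summed saline IP level (95% interval 11.2 to 29.7), and the unbound level 21.6 times the summed cocaine IP level (9.93 to 51.8).

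Crh, which encodes corticotropin-releasing hormone, the peptide that starts the pituitary stress response (chromosome 3, 19693401 to 19695396), had 0, 1 and 8 reads in the saline IP libraries and 43 in the input. It had 3, 3, 3, 1 and 0 reads in the cocaine IP libraries and 15 in the unbound library. Saline IP 4 was the only IP library above the floor. The input was 22.8 times the summed IP level (10.98 to 53.3) and the unbound library 10.03 times (4.22 to 25.0). The first fold rested on saline IP 4, which held 8 of the 9 reads: it was 142 without that library and 14.7 without saline IP 1.

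Adcyap1 encodes PACAP, a peptide related to VIP (chromosome 17, 93199017 to 93206537). It had 0, 2 and 3 reads in the saline IP libraries and 23 in the input, and 3, 2, 0, 0 and 5 reads in the cocaine IP libraries and 30 in the unbound library. Here cocaine IP 5 was the only IP library above the floor. The input was 22.0 times the IP level (8.18 to 74.0) and the unbound library 20.1 times (9.55 to 46.0). The first fold was 37.9 without saline IP 4 and 14.2 without saline IP 1, and the second 33.5 without cocaine IP 5.

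Trh, the precursor gene of thyrotropin-releasing hormone (chromosome 6, 92242061 to 92244650), had 4, 3 and 4 reads in saline IP and 19 in the input, and 7, 4, 3, 5 and 1 reads in cocaine IP and 34 in the unbound library. It was the least depleted of these scarce genes by the summed counts against input, at 8.26 times (3.73 to 19.2), an interval that overlaps those of Tac2, Crh and Adcyap1 and lies below that of Vip, and stood at 11.4 times (6.36 to 20.8) against unbound RNA. The 3 reads of saline IP 2 and of cocaine IP 3 are the floor itself.

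Nts, Cartpt, Cck, Scg2 and Chgb averaged 1 CPM or more both in IP and in the references. Of these 5, Cartpt, Cck and Scg2 were at least 2-fold lower than input in every saline IP library, where 13.8% of all genes compared were. Against unbound RNA Cck was lower in every cocaine IP library, where 12.8% of genes were. Vip, Tac2 and Crh against input, and Vip against unbound RNA, reached the 1 CPM mean only through the reference library, where they are high. They therefore had to come out lower, and their ratios are given as a description. The median ratio over all genes was 0.09 against input and 0.12 against unbound RNA. Tac2 and Crh were not compared with unbound RNA, and Adcyap1 and Trh with neither, since their means were under 1 CPM. With the added 1 CPM, ratios of the scarce genes understate the depletion: that of Tac2 against input was -2.02 ± 0.13, of Vip -1.60 ± 0.03 and of Crh -1.47 ± 0.21 (all SD, n = 3), and with 5 CPM added none of these 3 was counted as lower.

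**Figure D2:**
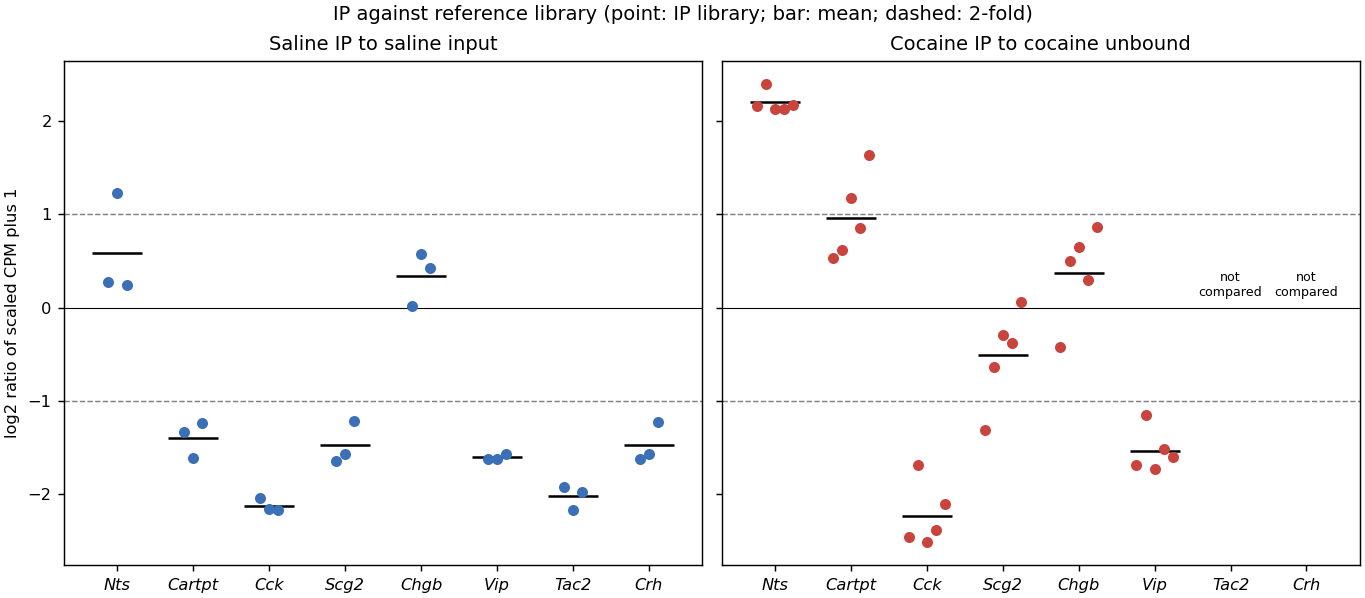
Log2 ratio of scaled CPM plus 1 (vertical axis) of each IP library to the saline input (left, 3 libraries) or the cocaine unbound library (right, 5 libraries), with the mean as a bar and 2-fold as dashed lines. Nts lies above 2 against unbound RNA, Cck lies below -1.6 in every library of both panels, and Cartpt is below -1.2 against input and above 0.5 against unbound RNA.

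The granins behaved unlike each other. Chgb encodes chromogranin B (chromosome 2, 132781278 to 132795079), and its IP level was close to both references. It had 179, 257 and 229 CPM in saline IP 1, 2 and 4 and 204 CPM in the input. It had 148, 266, 301, 237 and 357 CPM in cocaine IP 1 to 5 and 222 CPM in the unbound library. The IP libraries lay on both sides of each reference. Its log2 ratio was 0.34 ± 0.29 (SD, n = 3) for the input and 0.37 ± 0.49 (SD, n = 5) for unbound RNA, so the distance from 0 was about the spread between libraries, and with library size alone as the scaling the ratios were 0.11 and 0.18.

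Scg2 encodes secretogranin II, the source of the peptide secretoneurin (chromosome 1, 79434669 to 79440120). It had 65.9, 66.8 and 85.0 CPM in saline IP 1, 2 and 4 and 237 CPM in the input, so every saline IP library was below. It had 49.2, 74.9, 97.0, 91.4 and 126 CPM in cocaine IP 1 to 5 and 137 CPM in the unbound library, which also exceeded every IP library. The log2 ratio was -1.47 ± 0.23 (SD, n = 3) for the input. For unbound RNA it was -0.51 ± 0.51 (SD, n = 5), from -1.31 in cocaine IP 1 to 0.06 in cocaine IP 5, where TMM scaling put the library at the level of its reference.

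Cartpt encodes the cocaine- and amphetamine-regulated transcript peptide precursor, a transcript of the ventral striatum and hypothalamus (chromosome 13, 99898489 to 99901091). It had 1.57, 1.09 and 1.68 CPM in saline IP 1, 2 and 4, from 49, 32 and 46 reads, and 6.25 CPM in the input (95% Poisson interval 5.16 to 7.50). It had 2.06, 2.12, 3.64, 2.73 and 5.48 CPM in cocaine IP 1 to 5, from 65, 59, 115, 70 and 126 reads, and 1.25 CPM in the unbound library (0.813 to 1.82). The saline IP libraries were thus all below their reference and the cocaine IP libraries all above theirs. The log2 ratio was -1.39 ± 0.19 (SD, n = 3) for the input and 0.96 ± 0.45 (SD, n = 5) for unbound RNA, where cocaine IP 3 and 5 passed 2-fold and the other 3 did not. The references differed more (6.25 against 1.25 CPM) than the IP groups did (1.45 ± 0.31, SD, n = 3, against 3.21 ± 1.42, SD, n = 5). Treatment, fraction and library cannot be told apart in those references. Other genes also differed between them: Tac2 had 4.67 and 1.39 CPM, Crh 2.34 and 0.718, and Scg2 237 and 137, while Adcyap1 had 1.25 and 1.44 CPM.

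Cocaine IP was then compared with saline IP over the 8 libraries in edgeR's quasi-likelihood test with Benjamini-Hochberg adjustment over all genes tested. The 5 abundant genes entered the fit, and Vip, Tac2, Crh, Adcyap1 and Trh were removed by the low-count filter. None of the 5 passed adjusted p 0.05, as 0% of 13800 genes did. At an unadjusted p under 0.05 there were 295 genes in edgeR and 363 in DESeq2, which also called 0.

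Cartpt was the member farthest from no change. On CPM scaled over the IP libraries, it averaged 3.21 ± 1.41 after cocaine (SD, n = 5) and 1.44 ± 0.31 after saline (SD, n = 3), a log2 fold change of 1.15 (SE 0.36), or 2.22-fold with a 95% interval of 1.29 to 3.81. It ranked 24 among 13800 genes by p, with an adjusted p of 0.9998 in edgeR. Every cocaine library lay above every saline library. It was the 1 gene of the 5 tested with that pattern, where 1.15% of all genes tested had it. By shared number, cocaine and saline had 2.03 and 1.53 scaled CPM for number 1, 2.15 and 1.09 for number 2, and 2.72 and 1.70 for number 4, a sign already fixed by the groups not overlapping.

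The size of the Cartpt difference changed with the libraries kept in the fit and with the sequencing lane, which the labels give, as a term. The 3 cocaine libraries of lane 4 (numbers 3, 4 and 5) had 3.72, 2.72 and 5.44 scaled CPM, and the 2 of lane 6 (numbers 1 and 2) had 2.03 and 2.15. Lane 6 also held saline IP 4, with 1.70, and lane 7 the other saline libraries. Without the lane 4 libraries the log2 fold change was 0.53 (SE 0.35, edgeR adjusted p = 0.9999). With lane as a covariate it was 0.30 (SE 0.49, edgeR adjusted p = 0.9996), and with the library number as a block, over numbers 1, 2 and 4, it was 0.67 (SE 0.30, edgeR adjusted p = 0.747). It was positive in all 16 alternatives, from 0.30 to 1.27. Lane 4 holds cocaine libraries alone and lane 7 saline libraries alone, so lane and treatment cannot be told apart there. The fit with lane as a covariate thus rests on lane 6, with saline IP 4 against cocaine IP 1 and 2. Cocaine IP 5, the library with the most Cartpt, also had the least Drd2 of all IP libraries (1585 CPM) and the highest sum of the 8 direct-pathway markers (174 CPM, against 108 to 149 in the others). Its other markers did not all go that way. The 8 indirect-pathway markers summed to 11385 CPM in it, within the cocaine IP range of 7048 to 12406 CPM. Among the IP libraries Penk (8821 CPM) and Sp9 (95.3 CPM) were highest in it, and the direct-pathway marker Sfxn1 lowest (24.9 CPM). The part of these markers in the Cartpt value was not tested.

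**Figure D3:**
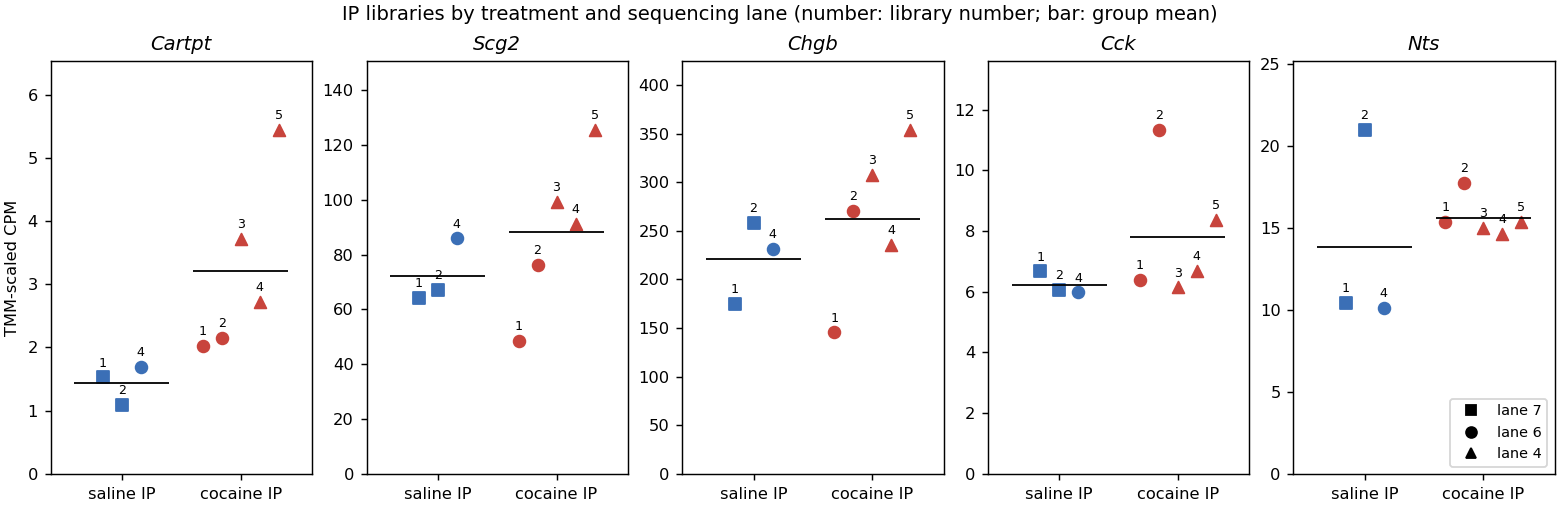
CPM scaled over the 8 IP libraries (vertical axes, from 0) of the 5 tested genes, with library numbers beside the points, marker shape for the sequencing lane and a bar for the group mean. In Cartpt and Scg2 the 3 triangles of lane 4 lie above all other points, and in Cck cocaine IP 2 stands alone at 11.3.

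The other 4 tested genes had differences within the spread between libraries. Scg2 had 88.0 ± 28.5 scaled CPM after cocaine (SD, n = 5) and 72.4 ± 11.8 after saline (SD, n = 3), a log2 fold change of 0.28 (SE 0.24), 1.22-fold with an interval of 0.840 to 1.76. Chgb had 263 ± 78.7 (SD, n = 5) and 221 ± 42.5 (SD, n = 3), a log2 fold change of 0.25 (SE 0.24), 1.19-fold with an interval of 0.825 to 1.70. Both granins were highest in cocaine IP 5 and lowest in cocaine IP 1, and their saline values lay between. Without cocaine IP 1 the log2 fold change was 0.42 (SE 0.17) for Scg2 and 0.38 (SE 0.16) for Chgb (both edgeR adjusted p = 0.967). Without cocaine IP 5 it was 0.11 (SE 0.22) and 0.10 (SE 0.23). Cocaine libraries of lane 4 had 91.1 to 125 scaled CPM of Scg2 and those of lane 6 had 48.5 and 76.1. Scg2 and Cartpt were the 2 of the 5 genes whose lane 4 cocaine libraries all exceeded the lane 6 ones, where 9.84% of all genes tested did. For Chgb the lanes overlapped, at 236 to 354 in lane 4 and at 146 and 270 in lane 6. The sign of both granins was opposite with lane as a covariate, at -0.46 (SE 0.28) for Scg2 and -0.16 (SE 0.38) for Chgb. That fit rests on lane 6, with saline IP 4 against cocaine IP 1 and 2. Saline IP 4 had the highest saline value of Scg2 (85.9 scaled CPM). The sign was also opposite over numbers 1, 2 and 4 alone, with the block (-0.05 and -0.06) or without it (-0.013 and -0.031). So it was without lane 4 (-0.22 and -0.10). For each granin 4 of the 16 alternatives were negative.

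Cck averaged 7.79 ± 2.16 scaled CPM after cocaine (SD, n = 5) and 6.23 ± 0.38 after saline (SD, n = 3), a log2 fold change of 0.32 (SE 0.21), 1.25-fold with an interval of 0.902 to 1.73. Without cocaine IP 2, the library with the most pallial RNA, it was 0.14 (SE 0.17). Nts averaged 15.6 ± 1.23 (SD, n = 5) and 13.8 ± 6.19 (SD, n = 3), a log2 fold change of 0.18 (SE 0.22), 1.13-fold with an interval of 0.806 to 1.59. This value depended on each saline library: without saline IP 2 it was 0.61 (SE 0.15, edgeR adjusted p = 0.968), without saline IP 1 -0.01 and without saline IP 4 -0.02. With lane as a covariate, a fit that rests on the lane 6 libraries, it was 0.71 (SE 0.37). Within numbers 1 and 4 cocaine was higher (15.4 against 10.4 and 14.7 against 10.1 scaled CPM), and within number 2 it was lower (17.8 against 21.0).

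The 5 scarce genes cannot be read for treatment at this depth. Tac2 had 23 reads over the 3 saline IP libraries and 9 over the 5 cocaine ones, and without the filter its edgeR adjusted p was 0.964. Vip had 1 and 20 reads, with 13 of the 20 in cocaine IP 2, and an adjusted p of 0.964 in the same fit. Crh had 9 and 10 reads, Adcyap1 5 and 10, and Trh 11 and 20, each with an adjusted p of 0.997 in edgeR.

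**Figure D4:**
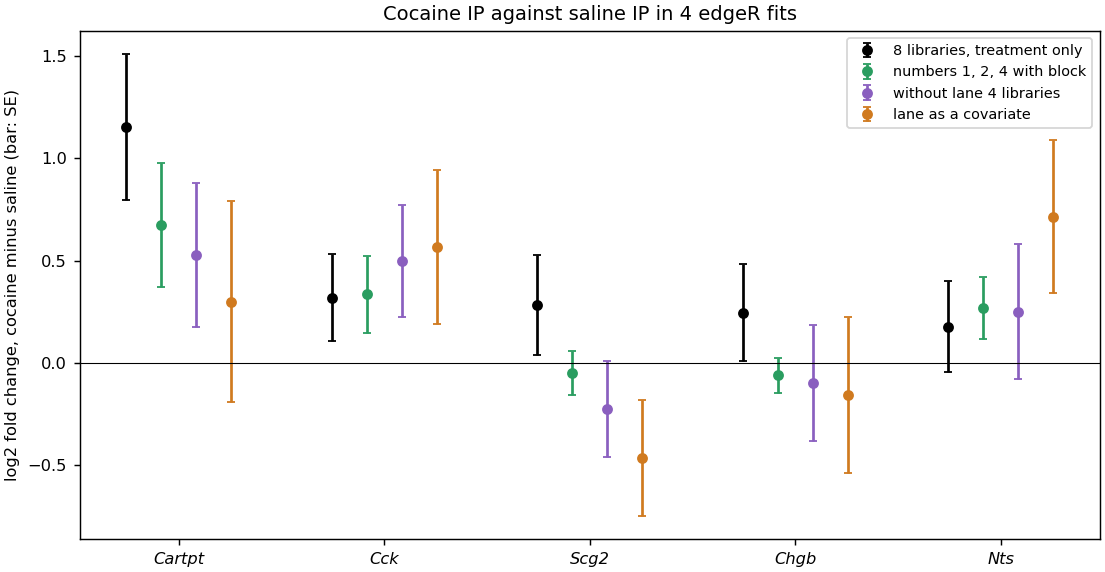
Log2 fold change of cocaine over saline IP (vertical axis) with its SE for the 5 tested genes in 4 edgeR fits, shown by colour. Cartpt goes from 1.15 with treatment alone to 0.30 with lane as a covariate, Scg2 and Chgb cross 0, and Nts and Cck stay positive in these 4 fits. The lane fit rests on lane 6, with saline IP 4 against cocaine IP 1 and 2.

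Promoter windows of all members that had one were searched for short sequences. Those of Cartpt, Scg2 and Chgb hold the palindrome TGACGTCA, the binding sequence of CREB-family factors known as the cAMP response element. These 3 genes also had their highest IP level in cocaine IP 5. So did Adcyap1, with 5 reads, whose windows lack the full element. The share of all genes with their highest IP level in that library was not counted, so these members have nothing to be set beside. Any link between the element and that library was not tested. RefSeq windows (GRCm38.p6, the assembly of mm10) run from 250 bases before to 50 after the start and matched 9 of the 10 genes, with 10 windows (not Crh). Both strands were searched, which for a palindrome is the same search. The 3 genes with the full element are these, printed on the strand of the gene with the element in capitals, because they are the windows in which it was found.
Cartpt chr13:99900634-99900933 minus strand: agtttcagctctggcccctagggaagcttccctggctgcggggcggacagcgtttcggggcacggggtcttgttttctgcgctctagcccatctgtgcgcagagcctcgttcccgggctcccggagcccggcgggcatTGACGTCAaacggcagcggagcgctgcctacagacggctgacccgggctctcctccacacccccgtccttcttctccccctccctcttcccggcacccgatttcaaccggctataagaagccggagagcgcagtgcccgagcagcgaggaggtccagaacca
Scg2 chr1:79439977-79440276 minus strand: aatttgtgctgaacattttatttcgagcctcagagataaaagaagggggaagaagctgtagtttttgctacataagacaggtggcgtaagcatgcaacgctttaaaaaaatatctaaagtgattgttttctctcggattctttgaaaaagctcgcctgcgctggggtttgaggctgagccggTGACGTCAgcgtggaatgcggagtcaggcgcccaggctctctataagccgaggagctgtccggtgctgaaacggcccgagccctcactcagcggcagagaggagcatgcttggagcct
Chgb chr2:132781392-132781691 plus strand: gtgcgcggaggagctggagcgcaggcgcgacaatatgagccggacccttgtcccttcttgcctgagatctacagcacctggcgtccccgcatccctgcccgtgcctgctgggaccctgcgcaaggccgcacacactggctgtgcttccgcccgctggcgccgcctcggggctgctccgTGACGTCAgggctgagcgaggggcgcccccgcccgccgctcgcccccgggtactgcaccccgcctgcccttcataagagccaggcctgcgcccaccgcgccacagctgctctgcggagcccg
The element begins 112 bases before the start in Cartpt, 68 in Scg2 and 72 in Chgb. Among 32851 windows of the same length, 1.79% hold it. The 5 letters TGACG, which are part of the element and were searched on both strands, are in windows of 8 of the 9 genes (all but Tac2) and in 20.8% of all windows. The AP-1 letters TGANTCA, also searched on both strands, are in the Nts window alone (7.81% of all windows), and the TATA letters TATAAA in those of Vip and Adcyap1 (13.6%). A match is a description of these letters and not a binding site, and the genes were chosen as a peptide family, so the share is no test.

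The wider granule machinery was compared by a list of 22 processing and granule genes, described by counts with no test. Of the 21 compared with input, 1 was higher and 3 lower by 2-fold in every saline IP library, where 1.56% and 13.8% of all genes were, and the median log2 ratio was 0.04. Against unbound RNA 2 were higher and 2 lower, where 3.59% and 12.8% of all genes were, and the median was 0.53. The lower counts are near those shares. They include Pcsk5 (0.837 scaled CPM in saline IP and 0.649 in cocaine IP), which averaged 1 CPM only through the references. With library size alone the medians were -0.18 and 0.34, so the sign of the first depended on the scaling, and the median of all genes also moved, to -0.13 and -0.07. Scg5, which encodes the convertase 2 chaperone 7B2, stood highest for the input, at 1.32 ± 0.28 (SD, n = 3), though not every library passed 2-fold with library size alone. For unbound RNA it had 1.62 ± 0.40 and the synaptotagmin gene Syt5, chosen after its value was seen, 1.70 ± 0.38 (both SD, n = 5). Against input the vesicle GTPase gene Rab3a came next after Scg5, at 1.09 ± 0.12 (SD, n = 3), and its exons overlap a gene on the other strand. Cadps2, a granule priming gene, had -2.38 ± 0.93 against input and the convertase gene Pcsk5 -1.89 ± 0.17 (both SD, n = 3).

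Other granin-family genes of the list, Scg3, Chga, Vgf and Pcsk1n, were read beside Scg2 and Chgb, a choice made after their values were seen. Scg5, whose symbol is of the same series, is given above and was counted as higher than both references (1.32 and 1.62). Exons of Pcsk1n overlap a gene on the other strand. Against input Scg3 had -1.46 ± 0.32, Chga -0.08 ± 0.04, Vgf -0.22 ± 0.36 and Pcsk1n 0.35 ± 0.61 (all SD, n = 3). Against unbound RNA Scg3 had -0.78 ± 0.22, Chga 0.53 ± 0.30, Vgf 1.10 ± 0.34 and Pcsk1n 0.83 ± 0.52 (all SD, n = 5). As with Scg2, each was higher relative to unbound RNA than to input, and of these 4 only Scg3 was counted as lower than input. For cocaine against saline 0 of the 21 list genes tested passed, with 13 positive and a median log2 fold change of 0.12, against 0.01 over all genes.

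**Figure D5:**
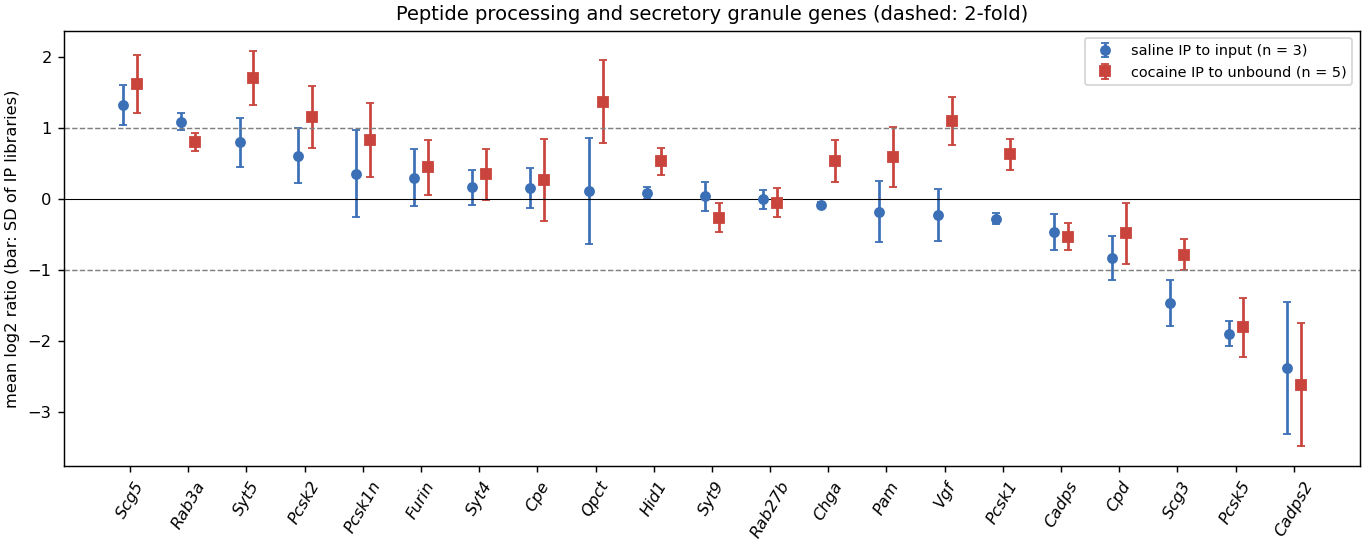
Mean log2 ratio (vertical axis) with the SD over IP libraries for the 21 processing and granule genes compared, against saline input (circles) and against cocaine unbound RNA (squares), ordered by the first. Scg5 is the highest at 1.32 and Cadps2 the lowest at -2.38 against input.

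Receptors of these peptides were counted in the same way. Of 10 receptor-list genes compared with input, 0 were higher and 3 lower by 2-fold in every library, with a median of -1.10, beside 13.8% lower over all genes. Of 11 compared with unbound RNA 5 were lower, with a median of -0.64, beside 12.8% over all genes. With library size alone 7 of 11 were lower than input, beside 16.4% over all genes. Crhbp (0.601 scaled CPM in saline IP and 0.304 in cocaine IP) averaged 1 CPM only through the references. So did Cckar and Vipr2, which the low-count filter removed from the cocaine test. These genes could only come out on the lower side, so the counts that include them are a description. Ntsr2, a neurotensin receptor gene of astrocytes, was lowest at -2.96 ± 0.10 and the cholecystokinin receptor gene Cckbr followed at -1.65 ± 0.12, while the neurotensin-binding sortilin gene Sort1 stood at 0.11 ± 0.20 and Crhr1 at -0.11 ± 0.28 (all SD, n = 3). Astrocyte markers were lower too, all 8 of them by 2-fold or more in all saline IP libraries. Of these, Gfap, Gjb6 and Aldh1l1 averaged under 1 CPM in saline IP. For cocaine against saline 0 of 10 tested receptor genes passed, with a median log2 fold change of 0.12.

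Other striatal peptide precursors show the range within which these members lie. Of 14 listed, 6 could be compared with input, with Penk, the enkephalin precursor gene and itself a mark of indirect-pathway neurons, at 2.74 ± 0.44 (SD, n = 3). Pomc stood at -0.23 ± 0.25, and Npy and Sst, which encode peptides of interneurons, at -4.07 ± 0.35 and -4.22 ± 0.54 (all SD, n = 3). Nts, at 0.58 against input and 2.20 against unbound RNA, thus lay below Penk (3.45 ± 0.51, SD, n = 5, against unbound RNA) and above each of the other precursors compared apart from Penk. The difference between Nts and Penk was not tested. Penk's gene model overlaps another on the other strand.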

How the data were processed

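The authors deposited raw counts of reads for each gene symbol, 1 file a library. STAR 2.0.0e, HTSeq and mm10 are named, with no version for HTSeq, in the submitters' processing notes. The annotation and the strand setting: not given in the sources used here. The 5 special counters stayed out of library sizes; reads in no feature made up (of those in genes, in none or ambiguous) 12.9% to 14.4% for IP, 25.5% for input and 27.4% for unbound RNA. Depth was 22975667 to 31631137 gene reads per IP library.

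Cocaine against saline IP used edgeR 4.0.16 in R 4.3.3 (quasi-likelihood, two-sided, TMM, filterByExpr, treatment as the only term). The common biological coefficient of variation was 0.199. IP to reference ratios used TMM-scaled CPM with 1 added, where IP and reference averaged 1 CPM or more, with no p-value, as each reference is 1 library. Intervals on summed reads are exact binomial or Poisson, at 95%. Alternatives were DESeq2 1.42.0, other scalings, priors and filters, lane, a block and left-out libraries. The steps were tested on simulated data. Positions and merged exon lengths are from GENCODE on GRCm38.

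Groups come from the sample descriptions and numbers from the titles. Same-numbered saline and cocaine IP libraries (1, 2 and 4) deviated together from their group means, with correlations of 0.708, 0.624 and 0.318 over 9618 genes that averaged 5 CPM or more, and 0.600, 0.470 and 0.191 over all 13800. The numbers were taken to pair them in the fit with the block alone, and the main fit is unpaired. Over numbers 1, 2 and 4, 141 genes had an unadjusted edgeR p under 0.05 without the block and 903 with it. What a number stands for is not in the labels. The members, the lists and the rule for named genes (all members, the 2 highest and 2 lowest of each list against input, Drd2 and markers beside a result, plus Syt5 and the granin family, added later) were chosen with earlier results of these data known.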

Additional observations from a re-analysis of the deposited data

How the results depend on the processing

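For cocaine against saline, 0 genes passed adjusted p 0.05 in all 16 alternatives, the replicate block included (smallest adjusted p in edgeR 0.0599 with the block, where 903 genes had an unadjusted p under 0.05). Of 80 recomputed member values, 70 kept their sign and 10 did not, and 0 passed. Scg2 turned to -0.46 with lane as a covariate, -0.049 with the replicate block, -0.013 without the block over those 6 libraries and -0.22 without the lane 4 libraries. Chgb turned to -0.16, -0.061, -0.031 and -0.10 in the same fits. Leaving out single libraries, Nts ranged from -0.016 to 0.61. Scg2 and Chgb turned over those 6 libraries with or without the block, and adding the block to that fit changed no sign among the 5 members. The cause of these turns was not tested, beyond the lane values given above.

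Against input, members counted as lower fell from 6 to 2 with a prior of 5 CPM and to 2 under a filter at an average of 5 CPM, which leaves 4 members. Against unbound RNA they fell from 2 to 1 and 1. Vip, Tac2 and Crh among the 6, and Vip among the 2, entered only through the reference and had to come out lower. Over all genes 13.8% were lower than input and 12.8% lower than unbound RNA before these changes. Over all genes, those at least 2-fold higher than input went from 209 to 68 with library size alone, to 125 with a prior of 5 CPM and to 323 to 374 without single libraries. Those lower went from 1848 to 781 with that prior and 855 with that filter. Against unbound RNA the higher genes went from 478 to 247 and 294, and the lower from 1705 to 760 and 829. With every gene that has a read compared, members higher and lower than input numbered 0 and 6, beside 211 and 2131 of all genes. Then 3 members were lower than unbound RNA, where Trh, near the floor, joins Cck and Vip, beside 1891 of all genes. Leaving single libraries out of the summed reads was chosen after seeing the data. Depth limits the 5 scarce members, each at or under 3 reads in some IP library.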
